A study of Homo sapiens with 6 samples.

Results

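The genes described here are 9 transcription factors that divide the early neural tube into regions: EMX1, EMX2, OTX1, OTX2, LHX2, SIX3, PAX6, GBX2 and EN1. They were named by symbol, out of 19974 protein-coding genes on the autosomes and the X chromosome. No measured value enters the rule, but the genes were chosen with earlier results of these data known. Every listed peak that overlapped 1 of these genes, or lay within 50 kb of it, was taken. This gave 90 of the 78694 H3K27ac peaks and 40 of the 43677 CTCF peaks in the study. A peak sharing at least 1 bp with the gene interval is called a peak at the gene, and the others are called flanking peaks.

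The study mapped chromatin in neurons that were derived through neural progenitors from KOLF2.1J, a widely shared human iPSC line (induced pluripotent stem cells). ChIP-seq, the sequencing of DNA pulled down with an antibody, was done for CTCF (2 libraries) and for H3K27ac (2 libraries), and 2 input libraries received no antibody. All 6 libraries came from this 1 line, differentiated in BrainPhys medium per the labels' protocols, with no treatment or genotype that sets some apart, and the time in culture is not given in the sources used here. The values are 1 peak list per antibody, made by the authors from both of its libraries, so there is no spread between replicates, no test between samples was possible and the read depth behind a value is unknown.

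H3K27ac, acetylated lysine 27 of histone H3, is found at active promoters and enhancers, and CTCF is a zinc-finger protein that binds DNA at the borders of chromatin loops. Regional identity in the brain is laid down by transcription factors expressed in overlapping territories along the neural tube, and those described here all carry a homeodomain, a DNA-binding fold. EMX1, EMX2, LHX2 and PAX6 act in the dorsal telencephalon, the source of the cerebral cortex, and SIX3 acts in the most anterior forebrain and the eye field. OTX1 and OTX2 mark the forebrain and midbrain. GBX2 marks the anterior hindbrain and opposes OTX2 at the midbrain-hindbrain border, where EN1 is expressed on both sides.

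The labelled cell type was compared with marker genes, against a background of 69.0% of all protein-coding genes with an H3K27ac peak and a median highest fold enrichment of 14.6 over those with one. All 10 neuron markers overlapped an H3K27ac peak, with a median over genes of 17.4 for the highest fold enrichment, as did all 9 neural progenitor markers, with a median of 29.3. Several neuron markers are long, such as SYT1 (588 kb), RBFOX3 (576 kb) and MAP2 (310 kb), though TUBB3 spans 14.2 kb. The median protein-coding gene spans 24170.5 bp, and marker genes were not matched to the background by length. Of the 6 pluripotency markers 2 had a peak (DPPA4 and LIN28A), and POU5F1, NANOG, ZFP42 and TDGF1 (listed as CRIPTO) had none. A peak was also found at 4 of 5 astrocyte markers and at 4 of 6 mesenchyme and endoderm markers, the latter close to the background share. In a bulk list, fewer cells carrying the mark and less of the mark per cell cannot be told apart in any value below.

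Of the 9 patterning genes, 8 had an H3K27ac peak at the gene, and EMX1 was the exception. The background is high: 69.0% of all protein-coding genes had such a peak (95% Wilson interval 68.3 to 69.6%, counting error only), and 62.6% of the 8122 genes between 4.37 and 28.9 kb long, the length range of the 9. A listed peak is thus the usual state of a gene, and the count of 8 is given as a description. The 8 genes held 31 peaks, with fold enrichments at the summit from 2.01 to 25.9 and a median of 5.53, against a median of 4.74 in the whole list. By its highest peak, the order was GBX2 (25.9), OTX1 (16.2), LHX2 (13.4), SIX3 (12.9), EMX2 (12.8), EN1 (10.5), PAX6 (9.81) and OTX2 (9.48). Without replicates it cannot be said which neighbours in this order differ. These heights lay between percentiles 52.4 and 83.3 of all protein-coding genes, where genes without a peak count as the lowest. Over genes with a peak, the median height was 12.8 in the 8 and 14.6 in all protein-coding genes.

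The genes stood further from protein-coding genes as a whole in the breadth of the mark than in its height. H3K27ac peaks covered 96.5% of the GBX2 interval, 83.1% of EMX2, 82.3% of EN1, 74.4% of OTX1 and 63.8% of SIX3. Coverage was 33.1% in LHX2, 20.4% in OTX2, 9.69% in PAX6 and 0% in EMX1. The median of the 9 was 63.8%, against 1.66% over all protein-coding genes and 3.08% over genes of the same length range. Among genes of that range the shares of GBX2, EMX2, EN1, OTX1 and SIX3 lay at percentile 99.4 or above, LHX2 at 97.2, OTX2 at 93.3 and PAX6 at 79.0. GBX2, EMX2, EN1, OTX1 and SIX3 are also the shortest members (4370 to 8097 bp, against 10575 to 28936 bp for the others). Length was not matched more closely than this range, and its part in these shares was not tested. Joining peaks separated by at most 1 kb gave 44425 runs in the genome with a median span of 0.967 kb. The runs at SIX3 (16.7 kb), OTX1 (13.8 kb), GBX2 (13.4 kb), EMX2 (12.5 kb), EN1 (8.88 kb) and LHX2 (8.68 kb) were all above percentile 99 of spans, whereas those at PAX6 (3.37 kb) and OTX2 (2.27 kb) were at percentiles 94.5 and 85.8. Such breadth was not particular to the 9. In the regional lists described below, coverage was 97.8% in ZIC2 and ZIC1, 93.1% in NKX2-1 and 87.7% in NR2F2. It was 6.10% in GLI3 and 3.02% in LEF1, and genes of those lists without a peak had no coverage. The neural progenitor marker SOX2 was at 100%. The comparison of breadth was added after the peaks had been seen and is a description.

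**Figure D1:**
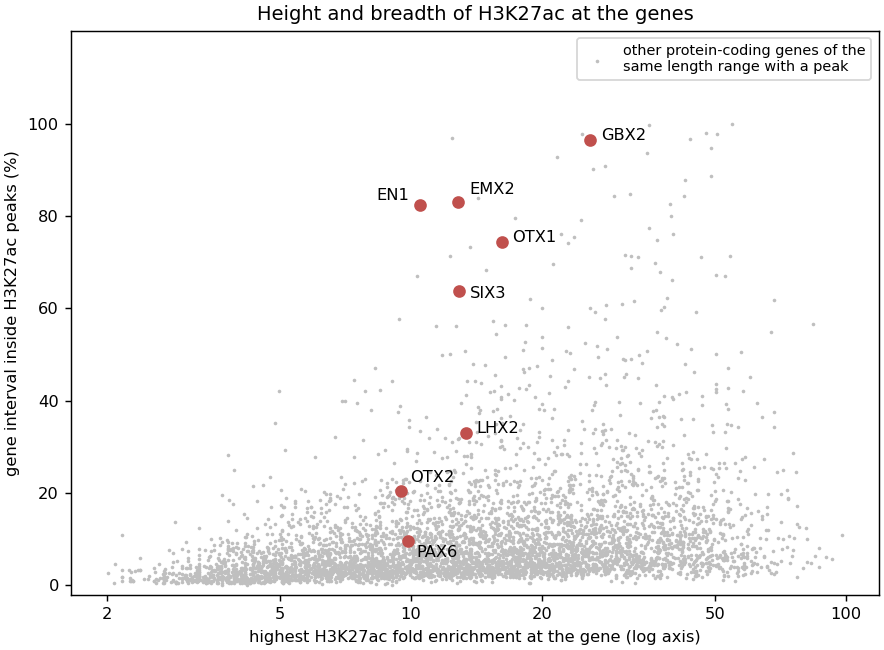
Highest H3K27ac fold enrichment at the gene (horizontal, log axis) against the share of the gene interval inside H3K27ac peaks in % (vertical), for the 8 patterning genes with a peak (red) and other protein-coding genes of 4.37 to 28.9 kb with a peak (grey). GBX2, EMX2, EN1, OTX1 and SIX3 are at 63.8% or more, while their heights of 10.5 to 25.9 lie inside the range of the grey points.

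Flanking H3K27ac peaks numbered 59 and occurred at all 9 genes (background 81.6% of protein-coding genes, and 83.5% of those in the same length range). They had a median fold enrichment of 4.69 and a highest value of 30.1, which lay beside GBX2. SIX3 had 20 of them, EN1 10, EMX2 9, OTX1 7, GBX2 5, OTX2 3, LHX2 2, PAX6 2 and EMX1 1. The flanking number of SIX3 was at percentile 98.6 of all protein-coding genes. A q-value above 0.05 was attached to 1 of the 31 peaks at genes and 4 of the 59 flanking peaks.

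**Figure D2:**
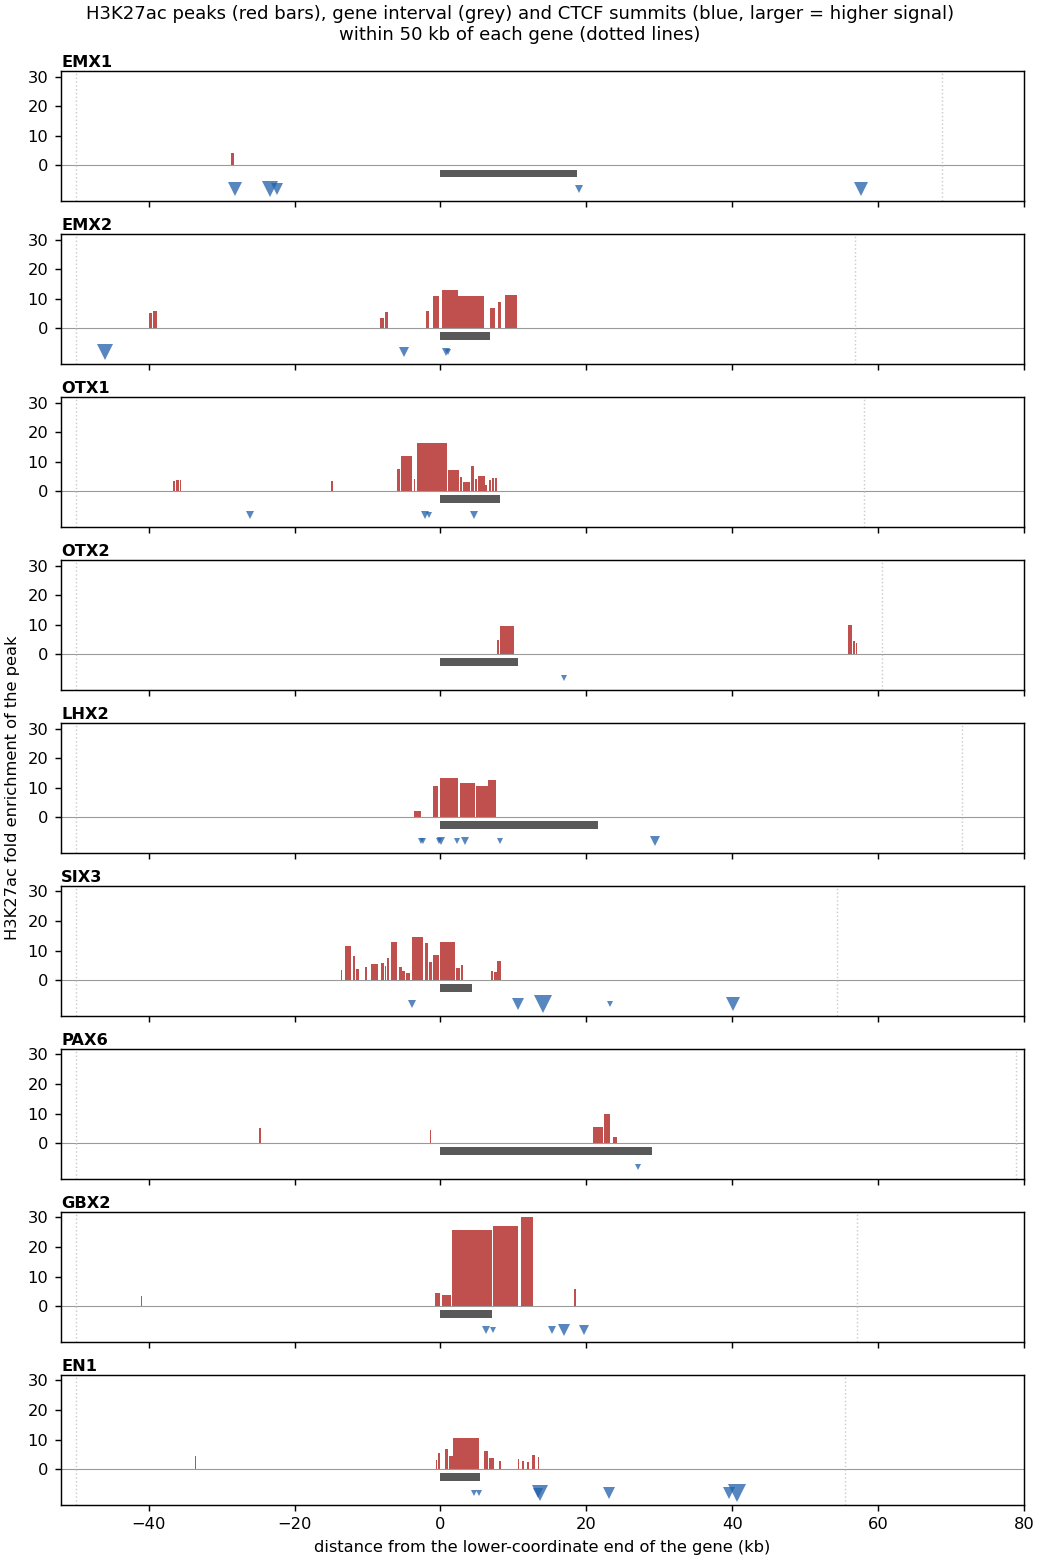
Peaks around each of the 9 genes, placed by distance in kb from the lower-coordinate end of the gene. Red bars span each H3K27ac peak at the height of its fold enrichment, the grey bar is the gene, blue triangles are CTCF summits drawn larger for a higher signal value, and dotted lines end the 50-kb flanks. GBX2 has the highest bars (25.9 to 30.1), SIX3 has 17 flanking peaks on its lower-coordinate side, and EMX1 has none on the gene.

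Annotated start sites show where the mark lay relative to the promoters. The RefSeq promoter table (GRCh38.p14) held 15 start sites for 6 of the genes, 9 of them in PAX6 and 2 in OTX2, and no entry was matched for EMX1, SIX3 and EN1. Windows of 300 bp (250 bases before the start to 50 after) overlapped an H3K27ac peak at 5 of the 15 sites, against 58.0% of 22132 sites of protein-coding genes, and the start base itself was inside a peak at the same 5, against 43.5%. A CTCF peak overlapped 2 of the 15, against 20.6%. The following stretches run 5′ to 3′ on the gene's own strand, from 250 bases before the start site through the first 30 bases after it. Capitals mark bases inside a listed H3K27ac peak. They are shown because the mark covered some of these promoters, broke off inside others and missed the rest.
GBX2, chr2:236168357-236168636, minus strand: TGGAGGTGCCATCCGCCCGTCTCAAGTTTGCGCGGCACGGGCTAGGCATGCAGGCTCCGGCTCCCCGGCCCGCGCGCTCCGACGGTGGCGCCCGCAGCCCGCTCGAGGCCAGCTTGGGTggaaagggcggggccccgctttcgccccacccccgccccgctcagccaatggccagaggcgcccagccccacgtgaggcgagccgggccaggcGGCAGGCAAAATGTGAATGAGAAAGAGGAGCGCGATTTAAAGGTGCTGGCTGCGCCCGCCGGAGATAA
OTX1, chr2:63050580-63050859, plus strand: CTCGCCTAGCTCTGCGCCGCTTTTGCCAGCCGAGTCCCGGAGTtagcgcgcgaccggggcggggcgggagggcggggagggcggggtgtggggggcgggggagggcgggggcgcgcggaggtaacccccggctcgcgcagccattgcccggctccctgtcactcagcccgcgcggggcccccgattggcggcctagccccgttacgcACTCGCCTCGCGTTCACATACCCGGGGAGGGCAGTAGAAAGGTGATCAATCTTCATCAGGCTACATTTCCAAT
LHX2, chr9:124011518-124011797, plus strand: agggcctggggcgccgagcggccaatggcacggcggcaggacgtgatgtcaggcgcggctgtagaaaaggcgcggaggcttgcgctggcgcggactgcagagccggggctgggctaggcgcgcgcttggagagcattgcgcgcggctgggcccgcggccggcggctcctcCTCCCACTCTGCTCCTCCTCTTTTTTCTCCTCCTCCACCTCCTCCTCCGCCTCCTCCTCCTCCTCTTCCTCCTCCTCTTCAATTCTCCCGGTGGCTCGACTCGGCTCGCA
PAX6, chr11:31809930-31810209, minus strand: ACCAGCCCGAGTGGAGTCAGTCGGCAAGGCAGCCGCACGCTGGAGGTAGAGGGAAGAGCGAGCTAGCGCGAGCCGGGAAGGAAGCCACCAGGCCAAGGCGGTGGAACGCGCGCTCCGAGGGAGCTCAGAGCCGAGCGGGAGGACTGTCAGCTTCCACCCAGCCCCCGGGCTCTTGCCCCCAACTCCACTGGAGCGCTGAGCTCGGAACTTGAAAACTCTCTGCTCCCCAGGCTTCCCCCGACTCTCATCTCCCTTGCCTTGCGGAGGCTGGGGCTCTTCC
PAX6, chr11:31817932-31818211, minus strand: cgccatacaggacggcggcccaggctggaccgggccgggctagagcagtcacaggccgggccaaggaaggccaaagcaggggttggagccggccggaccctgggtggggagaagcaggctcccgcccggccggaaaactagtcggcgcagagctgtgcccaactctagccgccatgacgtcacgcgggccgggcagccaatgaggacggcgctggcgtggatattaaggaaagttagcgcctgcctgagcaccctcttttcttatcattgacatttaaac
EMX2, chr10:117542496-117542775, plus strand: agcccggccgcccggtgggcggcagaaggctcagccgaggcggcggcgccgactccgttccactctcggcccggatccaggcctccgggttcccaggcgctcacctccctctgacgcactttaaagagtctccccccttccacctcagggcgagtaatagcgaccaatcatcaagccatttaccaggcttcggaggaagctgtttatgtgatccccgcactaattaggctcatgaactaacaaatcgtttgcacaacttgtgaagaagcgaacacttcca
OTX2, chr14:56810450-56810729, minus strand: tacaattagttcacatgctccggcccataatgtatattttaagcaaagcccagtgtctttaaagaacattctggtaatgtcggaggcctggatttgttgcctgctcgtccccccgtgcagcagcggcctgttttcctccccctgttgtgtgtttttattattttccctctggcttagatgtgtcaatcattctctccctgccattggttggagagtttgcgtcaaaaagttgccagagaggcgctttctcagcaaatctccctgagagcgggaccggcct

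In GBX2 and OTX1 a gap between 2 peaks fell within the printed stretch, just before the start site. The GBX2 start site itself was inside a peak, and the next peak began 132 bp upstream of it. In OTX1 the start site was inside a peak too, with the preceding peak ending 208 bp upstream. In LHX2 the peak began within the window and the previous one ended 388 bp upstream. The EMX2 start site lay in a gap, 258 bp from the upstream peak and 213 bp from the downstream peak, an arrangement with a peak within 1 kb on both sides of an uncovered start that 12.2% of all sites showed. The windows held 36 CG dinucleotides in GBX2, 34 in OTX1, 30 in LHX2, 21 in EMX2 and 9 in this OTX2 window, against a median of 21 over all 22132 windows.

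A search on both strands for 3 motifs found few matches in the 15 windows. The homeodomain core TAATTA occurred in 1 window, that of EMX2, 30 bases upstream of the start (3.40% of all windows hold it). The related core TAATCC, the type bound by OTX proteins, was in none of the 15, against 5.46% of all windows. A core of the CTCF motif (CC, any 3 bases, AG, any 2 bases, GGC) was in 2 of the 15, against 12.4% of all windows. In GBX2 that match began 154 bases upstream of the start, read CCTCGAGCGGGC on the strand opposite the gene, and lay inside both a CTCF peak and an H3K27ac peak. The other match, in PAX6, was inside neither. A match describes letters and not a bound site.

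Among the genes of the dorsal telencephalon, the EMX pair differed. EMX1, a marker of cortical excitatory lineages, had no H3K27ac peak at the gene, and its 1 flanking peak (fold enrichment 4.14) lay 28.3 kb away and overlapped SPR. EMX2, graded across the cortical field, had 2 peaks at the gene. The stronger, chr10:117542959-117545101, reached 12.8 (−log10 q 49.2), and its neighbour chr10:117545208-117548716 reached 11.0. Around them, 6 peaks on the lower-coordinate side (3.51 to 11.0) all overlapped the antisense gene EMX2OS, whose interval also runs into EMX2, so the stronger peak at the gene lies in both annotations. On the other side, 3 peaks of 6.87 to 11.2 followed within 2.04 kb of the gene and overlapped no annotated gene. The difference between EMX1 and EMX2 was not tested, since the list holds no replicates.

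LHX2, a LIM-homeodomain factor needed for cortical and eye fate, had 4 peaks at the gene with fold enrichments of 13.4, 11.6, 10.4 and 12.7. They followed one another from chr9:124011688-124014153 at the start site to chr9:124018339-124019388, and the rest of the gene held none. A flanking peak upstream reached 10.6. The second flanking peak, 2.61 kb from the gene and inside LHX2-AS1, reached 2.24 with a q-value above 0.05 (−log10 q 0.974). All 4 peaks at the gene were above the median of the list.

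PAX6, a paired-box factor of cortical progenitors and the eye, carried the mark at 2 of its 9 listed start sites, both internal, and no base of the other 7 windows was covered. The peak chr11:31809870-31811294, with a fold enrichment of 5.34, covered all bases of the internal window printed in capitals. The strongest peak at the gene, chr11:31811483-31812243, reached 9.81 and held no listed start site. The weakest, chr11:31812616-31813234, covered another listed start, but its fold enrichment was 2.01 and its q-value above 0.05 (−log10 q 0.597). The outermost start, whose stretch is in lower case, lay 4727 bp upstream of the nearest peak inside the gene. Both flanking peaks of PAX6 (5.30 and 4.37) overlapped the neighbouring gene ELP4, and none lay on the other side.

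SIX3, a repressor of posterior fate in the anterior forebrain, had 3 peaks at the gene. The widest, chr2:44941654-44943684, had a fold enrichment of 12.9, and the others were lower, the stronger of them at 5.04. More peaks lay in its flanks, which span 50 kb on each side, than in the gene of 4.37 kb. On the lower-coordinate side 17 peaks of 2.34 to 14.5 lay between 0.255 and 13.5 kb from the gene, and 14 of them overlapped the long noncoding RNA LINC01833 and 2 overlapped SIX3-AS1. The strongest of these, chr2:44937821-44939303 (14.5), exceeded every peak at SIX3. The 3 peaks on the other side had values of 2.70 to 6.44.

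The OTX paralogs, which pattern the forebrain and midbrain, differed in extent. OTX1 had 11 peaks at the gene, at percentile 95.3 of protein-coding genes. The strongest, chr2:63046494-63050622, was 4.13 kb wide with a fold enrichment of 16.2 and reached across the lower-coordinate end of the gene into EHBP1-AS1. The other 10 ran from 2.29 to 8.68, of which 7.19 at chr2:63050787-63052336 covered the printed start site. Its 7 flanking peaks were all on the lower-coordinate side and overlapped EHBP1, the highest at 11.9. OTX2 had 2 peaks at the gene, chr14:56808022-56809951 with a fold enrichment of 9.48 and a narrow one of 4.84. The wider peak ended 528 bp inside the outermost start site, and neither OTX2 start window was covered. The flanking peaks of OTX2 formed 1 group of 3 between 45.3 and 46.4 kb upstream, inside OTX2-AS1. The highest of that group, chr14:56855817-56856291, reached 9.91 (−log10 q 26.2), beside 9.48 on the gene.

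At the midbrain-hindbrain border, GBX2 carried the strongest mark of the 9 genes. The peak chr2:236162892-236168424 was 5.53 kb wide and had a fold enrichment of 25.9, at percentile 95.5 of the list, and a second peak in the gene had 3.70. Upstream of GBX2, within GBX2-AS1, the flanking peaks chr2:236168518-236171963 and chr2:236172338-236174051 had fold enrichments of 27.2 and 30.1, both above the value at the gene. EN1, the engrailed homolog, had 4 peaks at the gene with fold enrichments of 10.5, 6.91, 5.53 and 4.55. The highest, chr2:118843937-118847431, was 3.50 kb wide and covered most of the gene. Its 10 flanking peaks ran from 2.47 to 6.14, all below the highest peak at the gene, and 8 of them lay on the higher-coordinate side within 7.87 kb.

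CTCF peaks on these genes were weak, and those beside them were mostly stronger. Peaks at the gene occurred in 7 of the 9 (background 55.6% of all protein-coding genes and 44.3% of those of similar length), and OTX2 and SIX3 had none. Their 14 signal values, on the authors' scale, ran from 13.7 to 90.6 with a median of 35.1, and none was above the list's median of 91.0. Among all protein-coding genes with a CTCF peak, the median of the strongest peak at the gene was 147, against 53.0 in these 7. This comparison was not matched by length: the median length was 8097 bp in the 9 and 24170.5 bp in all protein-coding genes. The part of length in it was not tested. Of the 14 peaks, 10 had a width of exactly 800 bp, a width shared by 33.4% of the list. With those left out, 4 peaks at EMX2, OTX1, LHX2 and GBX2 remained.

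By gene, the signal values at the gene were 53.0 in EMX1, 69.7 and 23.4 in EMX2, 90.6 in OTX1 and 25.6 in PAX6. GBX2 had 51.0 and 30.9, EN1 had 23.5 and 18.3, and LHX2 had 62.0, 47.8, 35.4, 34.7 and 13.7. Only the OTX1 peak, chr2:63054143-63054515, came near the list's median. LHX2 thus held the most CTCF peaks, 5, at percentile 95.1 of protein-coding genes, all of them weak. In GBX2 the weaker peak, chr2:236168170-236168969, spanned the start site and the gap in H3K27ac seen in the printed sequence. In LHX2 the peaks chr9:124011188-124011987 and chr9:124011787-124012051 overlapped the start window as well.

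In the flanks, 26 CTCF peaks were listed at 8 of the 9 genes (background 86.1%, and 89.1% in the same length range), PAX6 having none, and 17 of them (65.4%) were above the list's median. Their median signal was 147 and the highest 341. That peak, chr2:44955523-44956056, lay 9.45 kb from SIX3 on the side with few H3K27ac peaks, and 3 others there had signals of 261, 198 and 42.7. EN1 had 5 flanking CTCF peaks from 109 to 322, all on the higher-coordinate side, 2 of which share 1 interval with different summits. EMX1 was flanked on both sides, by signals of 309, 226 and 195 on the lower-coordinate side and 245 on the other. EMX2 had 273 and 101, GBX2 had 180, 133 and 77.8, and LHX2 had 138 besides 2 weak peaks of 29.3 and 26.1. The strongest flanking signals of OTX1 (59.4) and OTX2 (38.0) stayed below the list's median.

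**Figure D3:**
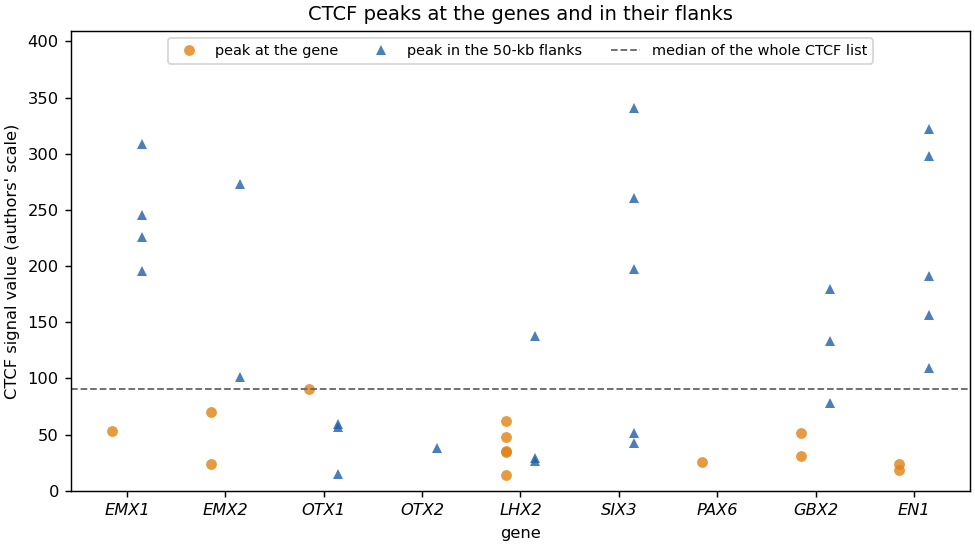
CTCF signal value on the authors' scale (vertical) for every CTCF peak at each gene (orange circles) and in its 50-kb flanks (blue triangles); the dashed line is the list's median of 91.0. All 14 circles lie below the line, and 17 of the 26 triangles lie above it.

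CTCF and H3K27ac peaks met mainly on the genes. Of the 40 CTCF peaks in these windows 19 overlapped an H3K27ac peak, against 28.1% of all CTCF peaks. Without the width of 800 bp it was 8 of 23 (34.8%), against 25.2% of the 29100 such peaks in the list. The 19 comprised 11 of the 14 peaks at genes and 8 of the 26 flanking peaks. H3K27ac covered a median of 63.8% of these genes, and the part of that breadth in the overlap was not tested. Of the 11 overlapping peaks at genes, LHX2 held 4, EMX2, GBX2 and EN1 each held 2, and OTX1 held 1.

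Other regional genes were described by the same rule, with lists that were written with earlier results of the data known. Their counts stand beside the background of 69.0% of protein-coding genes with a peak at the gene (62.6% in the length range of the 9). The ventral telencephalon (66.7%), eye and diencephalon (64.3%) and organizer (71.4%) lists lay near it, and the hindbrain and spinal cord list (33.3%) lay furthest from it. In the dorsal telencephalon list 10 of 12 genes had a peak, and 6 exceeded the median over all protein-coding genes of 8.64 (genes without a peak set to 0). NR2F2 (42.7) and NR2F1 (36.3), nuclear receptors of caudal and ventral cortex, and GLI3 (30.2), a repressor of ventral fate, were highest. EOMES and NEUROD6, genes of cortical intermediate progenitors and projection neurons, had none, like EMX1. In the ventral telencephalon list 8 of 12 had a peak, led by VAX1 (18.1), DLX1 (15.5) and NKX2-1 (12.7), and 4 exceeded that median. The genes without one were GSX2, OLIG2, LHX6 and LHX8.

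Of the 14 eye, hypothalamic and diencephalic genes 9 had a peak, and 3 exceeded the median of 8.64, namely TCF7L2 (35.0), IRX3 (17.2) and SIM2 (8.68). RAX, OTP, NKX2-4, NKX2-2 and BARHL2 had none. Of the 14 midbrain and isthmus genes 8 had a peak, with 1 above the median, PAX8 (9.93), followed by EN2 (8.09), the paralog of EN1, and SP5 (6.78). The other genes with a peak were PAX5, LMX1A, LMX1B, FOXA1 and NR4A2. PAX2, FOXA2, PITX3, TAL2, POU4F1 and BARHL1 had none. FOXA2 and PITX3 mark the floor plate and midbrain dopamine neurons.

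The hindbrain and spinal cord list had the fewest, 5 of 15. The highest were IRX5 (35.5), IRX2 (27.6) and EGR2 (26.3), a gene of hindbrain segments and also an immediate early gene. Among HOX genes, which set position in the hindbrain and spinal cord, HOXB2 had a peak of 4.61, and HOXA2, HOXB1, HOXB4 and HOXC6 had none at the gene. TLX3 also had none. In the list of dorsal neural tube and neural crest genes 8 of 10 had a peak, with ZIC2 (50.6), ZIC1 (24.7) and TWIST1 (8.93) highest. MSX2 and FOXD3 had none, and PAX3, PAX7, MSX1, SOX10 and TFAP2A had values of 3.64 to 5.83. Among the 7 organizer signals 5 had a peak, namely BMP7 (19.9), BMP4 (6.88), SHH (6.70), WNT3A (6.28) and WNT8B (3.62). FGF8 and WNT1, the signals of the midbrain-hindbrain organizer, had none at the gene, and their strongest flanking peaks reached 31.9 and 27.1. Over all protein-coding genes with a flanking peak, the median of the strongest was 16.8. Which genes the flanking peaks of FGF8 and WNT1 overlap was not examined.

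**Figure D4:**
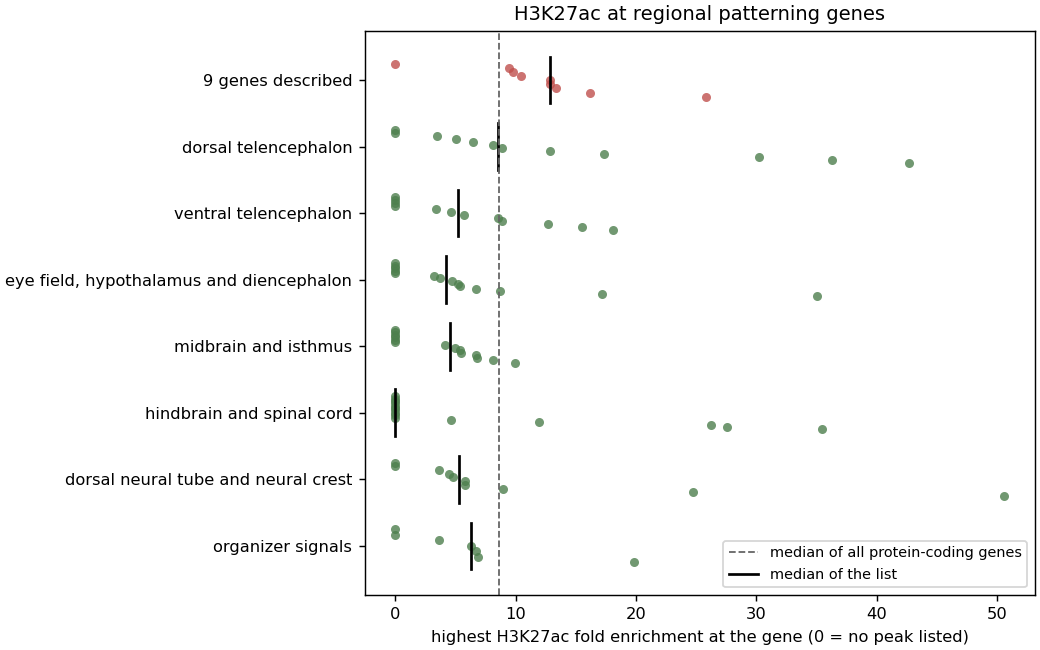
Highest H3K27ac fold enrichment at the gene (horizontal, 0 where no peak was listed) for each gene of the 9 described (red) and of 7 regional lists (green), with the list's median as a black line and the median of all protein-coding genes (8.64) dashed. The median of the 9 is 12.8, the hindbrain and spinal cord median is 0, and the dorsal telencephalon median is 8.50.

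Laid out by region, genes of several territories carried the mark. H3K27ac lay at forebrain genes (SIX3, LHX2, EMX2, PAX6), at forebrain and midbrain genes (OTX1, OTX2), at midbrain-hindbrain genes (EN1, EN2, PAX8, GBX2) and at IRX genes, whereas HOXA2, HOXB1, HOXB4 and HOXC6 had no peak at the gene. Fold enrichment was 25.9 at GBX2 and 9.48 at OTX2, a pair with opposed territories in the embryo. Whether these marks were in the same cells or in different cells of the culture cannot be told apart in a pooled bulk list, and the fold enrichment of a peak is not a measure of transcription.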

How the data were processed

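ChIP-seq peak lists for CTCF and H3K27ac were analysed. Per the submitters' processing notes, cutadapt 1.16 and the build hg38 were used. The aligner, the peak caller and its settings are not given in the sources used here. Per the labels, the CTCF list is an irreproducible discovery rate set. Each deposited list covers both libraries of its antibody and has 10 columns. The CTCF signal value was treated as a score on an unstated scale, and the list also has a deposited score of at most 1000. The deposited H3K27ac signal was read as a fold enrichment (a ratio) at the summit, judged from its values. Both deposited lists give −log10 q values, and that of CTCF does not exceed 4.78. The lists hold 0 columns of single libraries, and input values were not analysed here. Depth is unknown.

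Gene intervals and promoter windows came from RefSeq (GRCh38.p14). Coordinates are 1-based. Overlap meant at least 1 bp. Fold enrichment and CTCF signal were compared only within a list. Shares have 95% Wilson intervals. Scripts used Python 3.11.15, pandas 2.3.3 and matplotlib 3.10.9, and overlap functions were tested on simulated data. Named genes were all 9 members, the 3 highest of each regional list, genes with a peak where 10 or fewer, and genes that flanking peaks overlap. Genes without a peak were named after their values were seen, and some genes of the lists are not reported here by name. The members and lists were chosen with earlier results of these data known. Alternatives were stricter lists, summits in place of intervals, other windows, merged CTCF peaks, CTCF peaks without the width of 800 bp, and, added after the data were seen, genes of similar length. Breadth, runs, start sites and motifs were also added then.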

Additional observations from a re-analysis of the deposited data

How the results depend on the processing

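No paired analysis was possible because the libraries of an antibody were merged into 1 list without values of their own. Leaving out each replicate was not run for the same reason. Of 70 alternatives to 16 counts and shares, 52 stayed within 1.5 times the count or within the interval, and 18 moved. Counts and shares have no direction, so a reversal was not among the possible outcomes. The number of the 9 genes with an H3K27ac peak was 8 under every alternative run, EMX1 being the exception each time. The cause of a move was not tested unless the alternative's own construction (fewer peaks, a wider window) shows it.

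With the 50% of peaks of highest signal, flanking H3K27ac peaks fell from 59 to 29, CTCF peaks at the genes from 14 to 0, flanking CTCF peaks from 26 to 17 and genes with a CTCF peak from 7 to 0, while the background shares were 62.6% for H3K27ac and 37.5% for CTCF. Without the width of 800 bp there were 4 CTCF peaks at 4 genes, 8 of 23 CTCF peaks overlapping H3K27ac instead of 19 of 40, and a CTCF background of 44.7%. A window of 100 kb gave 41 flanking CTCF peaks. The H3K27ac background of 69.0% was 67.9% with q under 0.01, 64.4% by summits, 73.9% with intervals extended by 5 kb and 62.6% in genes of similar length. The CTCF background of 55.6% was 51.0% by summits, 68.4% with extended intervals and 44.3% in genes of similar length. Depth is unknown, so a missing peak, as at EMX1, means only that none was listed.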
